A study of Mus musculus with 6 samples.

Results

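The brush border peptidases examined here are 9 genes, 8 of them membrane-bound peptidases and the last the peptide carrier Slc15a1, chosen by name from the platform's gene symbols. All 9 were found, on 13 of 22626 probe sets, among 12393 genes with a probe set of their own. RNA came from the proximal part of the colon of 3 gene-trap heterozygotes of Mthfd1 (genotype label Mthfd1/+) and 3 wild-type mice, and was measured on 6 single-colour expression arrays. All mice were 8 weeks old and had eaten the AIN-93G control diet for 5 weeks since weaning at 3 weeks of age. The whole opened tissue was extracted, so epithelium, muscle and immune cells are all in each sample. The animals are labelled as biological replicates, and the sources used here do not give strain, sex or where in the gene the trap sits.

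Brush border peptidases sit in the apical membrane of enterocytes and cut the oligopeptides left by gastric and pancreatic proteases into amino acids and very short peptides. Slc15a1 then carries di- and tripeptides into the cell with protons. This machinery is best known from the small intestine, where many of its genes are far more active than in the colon, and several of the same enzymes are also found on kidney tubules, blood vessels or leukocytes.

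Mthfd1 itself, an enzyme that interconverts folate-bound carbon units, read 504 ± 48.4 in heterozygous and 890 ± 56.1 in wild-type colon at its brightest probe set (SD, n = 3 each), 56.6% of the wild-type mean, with the 2 groups apart at all 3 of its probe sets. The colon label was checked against markers: the colonocyte carbonic anhydrase Car1 read from 15442.6 to 19083.6 over the 6 arrays and the goblet cell product Zg16 from 17330.6 to 18626.4. Of the other colonocyte genes, Slc37a2, Aqp8, Aqp4 and Car4 were named after their values were seen. Slc37a2 and Aqp8 varied widely in the same order of arrays, and Aqp4 in another. Slc37a2 read 456.5, 2389.7 and 1794.2 in heterozygous replicates, against 672.6, 1590.4 and 33.1 in wild-type replicates. The water channel gene Aqp4 read 424.3, 329 and 280.4 in heterozygous replicates, against 461, 325.3 and 2078.2 in wild-type replicates. The water channel gene Aqp8 read 1128.3, 3454.3 and 2886.3 in heterozygous replicates, against 1346.4, 2562.1 and 667.8 in wild-type replicates. Its range was 5.08-fold on signal + 16. Wild-type replicate 3 thus stood apart for Slc37a2, where it was lowest, and for Aqp4, where it was highest. For Aqp8 it was the lowest array without standing apart. Brighter colonocyte genes did not share the order of Slc37a2 and Aqp8. Cyp2c55 read from 12535.4 to 16830.3 over the arrays. Saa1 read 10880.6, 5490.4 and 6538.1 in heterozygous replicates, against 7937.5, 5243.6 and 9277.2 in wild-type replicates, lowest in replicate 2 of each genotype. Car4 was lowest in wild-type replicate 2 (3205.8) and highest in wild-type replicate 3 (6415.8). The ileal bile acid binding protein gene Fabp6 was also present, at 382.3, 5621.6 and 727.8 in heterozygous replicates 1 to 3 and at 1316.8, 5661.9 and 93.5 in wild-type replicates 1 to 3. Replicate 2 of each genotype was highest for Fabp6, and the peptidase results that rest on these arrays or on wild-type replicate 3 are given with and without them.

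The promoter windows of 4 members are shown because they set Anpep beside Dpep1, the member named as running against it, and beside the pair with a motif match upstream of the start site. They are RefSeq windows of GRCm38.p6, 250 bases before to 50 after a start site, written 5′ to 3′, with matches to the searched motifs in capitals.
Anpep, chr7:79848161-79848460, minus strand: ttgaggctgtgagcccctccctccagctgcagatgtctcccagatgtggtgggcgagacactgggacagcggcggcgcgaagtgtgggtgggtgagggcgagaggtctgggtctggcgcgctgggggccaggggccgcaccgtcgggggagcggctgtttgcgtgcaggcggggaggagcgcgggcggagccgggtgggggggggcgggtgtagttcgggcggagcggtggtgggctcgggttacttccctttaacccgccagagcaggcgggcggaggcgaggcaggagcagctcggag
Dpep1, chr8:123185985-123186284, plus strand: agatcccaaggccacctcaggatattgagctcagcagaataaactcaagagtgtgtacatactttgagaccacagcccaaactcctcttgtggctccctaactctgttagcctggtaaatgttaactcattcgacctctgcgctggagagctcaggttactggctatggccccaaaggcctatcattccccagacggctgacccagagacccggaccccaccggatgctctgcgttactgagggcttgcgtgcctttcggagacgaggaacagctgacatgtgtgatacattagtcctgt
Dpp4, chr2:62412182-62412481, minus strand: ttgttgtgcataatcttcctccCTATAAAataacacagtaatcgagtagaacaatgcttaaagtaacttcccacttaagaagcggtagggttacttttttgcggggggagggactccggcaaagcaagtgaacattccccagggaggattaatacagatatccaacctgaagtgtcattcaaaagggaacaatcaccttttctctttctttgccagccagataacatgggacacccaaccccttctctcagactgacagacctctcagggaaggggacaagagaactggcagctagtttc
Ace, chr11:105967698-105967997, plus strand: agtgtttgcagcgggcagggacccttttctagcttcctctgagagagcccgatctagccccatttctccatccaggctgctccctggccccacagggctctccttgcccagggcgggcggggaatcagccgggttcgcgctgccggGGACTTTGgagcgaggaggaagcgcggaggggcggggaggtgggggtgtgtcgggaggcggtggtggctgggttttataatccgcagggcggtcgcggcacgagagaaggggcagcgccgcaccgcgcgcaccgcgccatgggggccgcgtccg
Motifs of 4 families of intestinal transcription factors were searched on both strands. The CDX motif was TTTATNG. The HNF4 motif was CAAAGTCC. The motif of the GATA factors was AGATAAG, and that of HNF1 is given by name. No 2 matches overlapped in these windows. In 8 of the 9 members a window was at hand, 11 windows in all. The CDX motif was found in the Dpp4 window, its first base at -228 from the start site, and in the Mep1a window at 13. The HNF4 motif was found in 1 Ace window, at -104, and no match was found in the windows of Anpep, Enpep, Dpep1, Mme or Slc15a1. Over all 32851 windows the shares with a match were 0.399% for HNF1, 10.9% for CDX, 1.42% for HNF4 and 3.04% for GATA.

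For 7 of the 9 peptidases the ranges of the 2 genotypes overlapped, and several varied widely between animals of 1 genotype. Levels below are signals of the brightest probe set of a gene, in arbitrary units scaled to a common mean on each array, so that they compare arrays and not genes. Of the 9 members, 6 had a highest array at least 2-fold above the lowest on signal + 16, against 8.03% of 8243 tested genes. Wild-type replicate 2 was the highest array for 8 of the 9 members, and for 6 of them heterozygous replicate 2 was next.

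**Figure D1:**
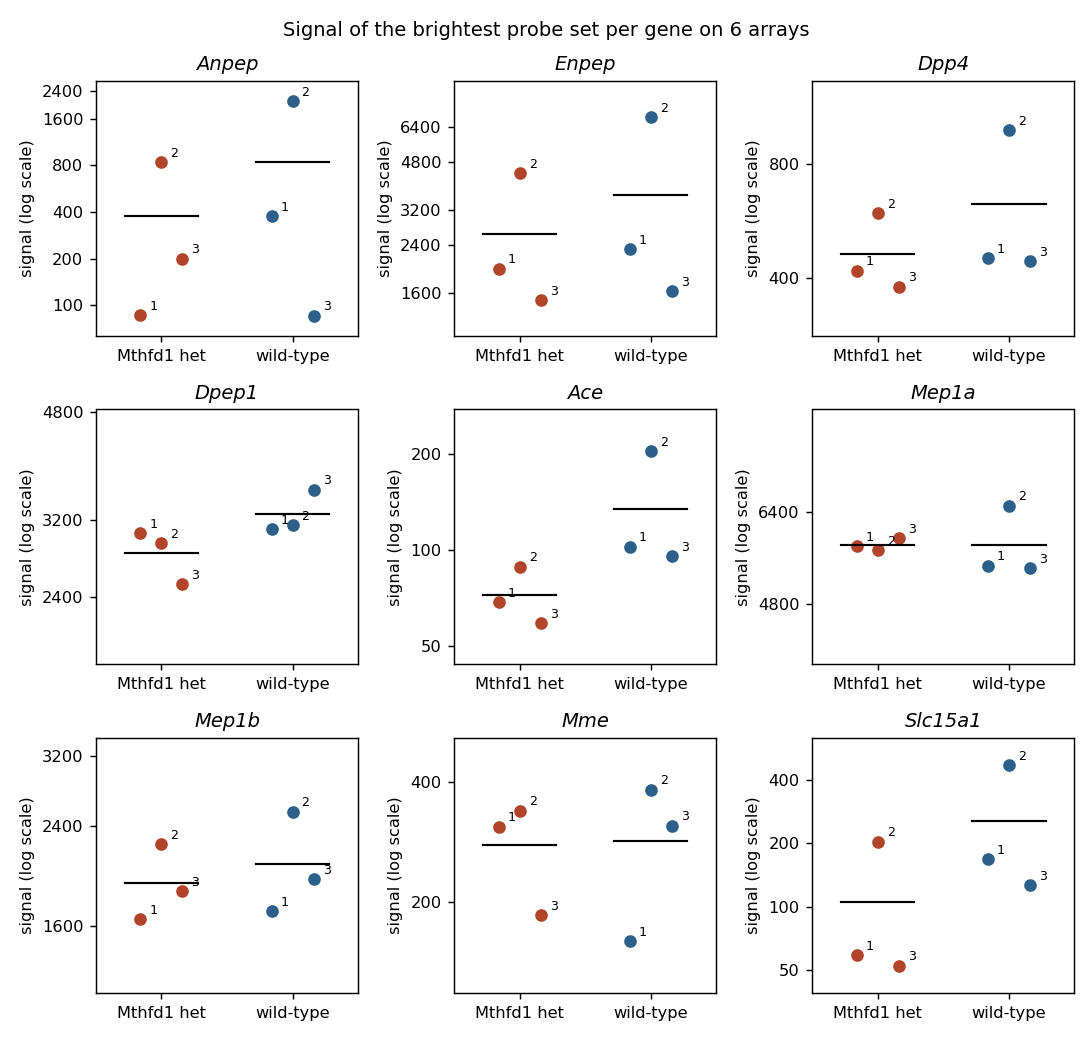
Signal (log scale) of the brightest probe set of each gene on the 6 arrays, with heterozygous arrays in red on the left and wild-type arrays in blue on the right; numbers are replicates and bars are group means. Replicate 2 is the highest array of each genotype for Anpep, Enpep, Dpp4, Ace, Mep1b, Mme and Slc15a1, and Anpep ranges from 85.8 to 2066.9.

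Anpep, the aminopeptidase that removes neutral amino acids from peptide ends, read 86.5, 836.6 and 199.7 in heterozygous replicates 1 to 3, against 377, 2066.9 and 85.8 in wild-type replicates 1 to 3. The groups overlapped from end to end, and the highest array was 20.5-fold above the lowest on signal + 16, a spread that 8 of the 8243 tested genes, Anpep included, reached. The readings of 86.5 and 85.8 lay below 95.8, the mean signal that a probe set needed to be tested. Without detection calls they cannot be shown to lie above background, and the size of the spread rests in part on them. Enpep, which removes acidic residues and in the kidney converts angiotensin peptides, read 1964.1, 4362.1 and 1512.7 in heterozygous replicates, against 2316.1, 6962.4 and 1630.8 in wild-type replicates. It had the same pair of high arrays as Anpep with a 4.56-fold range. In whole tissue, fewer cells of a type and less RNA per cell cannot be told apart.

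Dpp4, the serine peptidase that cuts dipeptides after proline and inactivates incretin hormones, read 418, 594.3 and 379.4 in heterozygous replicates, against 451.1, 984.4 and 443.5 in wild-type replicates. Replicate 2 was again highest in both groups, and the other 4 arrays lay between 379.4 and 451.1. Its dimmer probe set, below the filter on low signal, read 47.7, 85.8 and 34 in heterozygous replicates and 26.3, 83 and 36.5 in wild-type replicates, with replicate 2 highest in both.

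Dpep1, a zinc dipeptidase that also hydrolyses leukotrienes, was the flattest member but Mep1a. It read 3048.2, 2932.6 and 2519.5 in heterozygous replicates, against 3093, 3142.1 and 3583.7 in wild-type replicates. All 3 heterozygous arrays lay below all 3 wild-type arrays, with heterozygous replicate 1 and wild-type replicate 1 close together, and the highest array was wild-type replicate 3, where Anpep was lowest. A dimmer probe set read 1959.7, 1822.2 and 1774.2 in heterozygous replicates and 1936.3, 2520.6 and 3055.4 in wild-type replicates, which overlap, with wild-type replicate 3 again the highest.

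Ace, the peptidyl dipeptidase that makes angiotensin II and is also abundant on endothelium, was dim. Its mean of 102.9 passed the filter of 95.8 only through wild-type colon, since all 3 heterozygous arrays and wild-type replicate 3 lay below 95.8. It read 68.4, 88.4 and 58.9 in heterozygous replicates, against 102.2, 204 and 95.5 in wild-type replicates, and the groups did not overlap. The second probe set of Ace was below the filter and read 16.6, 17.7 and 51.5 in heterozygous replicates and 44.6, 69.4 and 52.4 in wild-type replicates, which overlap. No detection calls come with the values, so neither can be shown to lie above background.

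Among the endopeptidases, Mep1a, the secreted or membrane-held meprin alpha subunit, read 5751.4, 5673.5 and 5890.4 in heterozygous replicates, against 5407.6, 6519.7 and 5365.2 in wild-type replicates. Its whole range was 1.21-fold. Mep1b, the membrane-spanning meprin beta subunit, read 1646.6, 2230.6 and 1842.4 in heterozygous replicates, against 1699.1, 2547.6 and 1935.9 in wild-type replicates, with replicate 2 high in both groups and a range of 1.54-fold. Mme, neprilysin, which degrades enkephalins and tachykinins, read 309.7, 339.9 and 185.4 in heterozygous replicates, against 159.5, 383.4 and 311.5 in wild-type replicates. Its groups overlapped, and its lowest array, wild-type replicate 1, was not low for Anpep. The other Mme probe set, below the filter, read 37.5, 41.6 and 2.4 in heterozygous replicates and 45.5, 49.3 and 51.3 in wild-type replicates. Here the groups did not overlap, with a difference of -0.75 on the log2 scale that leans on the reading of 2.4 in heterozygous replicate 3. The 2 probe sets of Mme thus differ, but the dimmer one was not tested over all probe sets. Without detection calls it cannot be shown to lie above background.

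Slc15a1, the proton-coupled carrier of di- and tripeptides, read 58.7, 203.4 and 52.5 in heterozygous replicates, against 167.8, 470.1 and 126.6 in wild-type replicates. It had the second widest range of the members, 7.10-fold, and the groups overlapped only through heterozygous replicate 2, which lay above wild-type replicates 1 and 3.

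**Figure D2:**
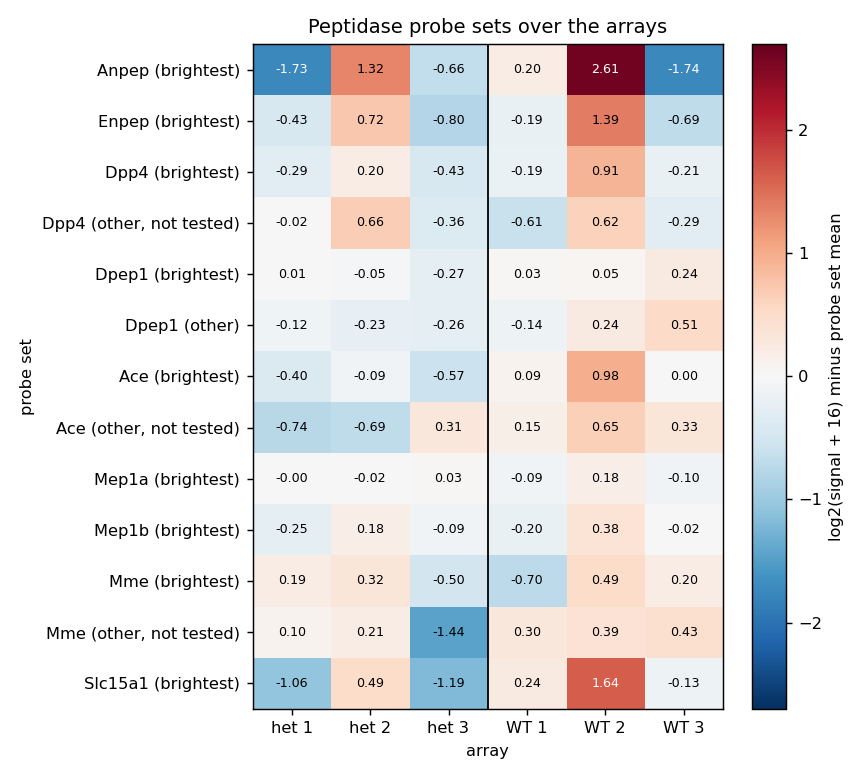
Centred log2(signal + 16) of all 13 probe sets (rows) on the 6 arrays (columns, heterozygous left of the line, wild-type right of it). Red cells gather in replicate 2 of both genotypes for Anpep, Enpep, Dpp4 and Slc15a1, whereas Dpep1 and Mep1a stay pale.

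The question of which members follow Anpep was put to log2(signal + 16) over the 6 arrays, as 8 relations whose exact permutation p-values were adjusted together by the Benjamini-Hochberg method. Of the 8 other members, 7 had a positive Pearson r with Anpep and 4 had an r of at least 0.8, against 41.9% and 4.02% of the 8234 other tested genes. The arrays are shared by all these relations, so the 8 are not independent of each other. The members were chosen, and Anpep named as their reference, with earlier results of these data known. The shares and the p-values below are therefore given as a description. Enpep was closest (r = 0.93, exact permutation p = 0.00972, Spearman rho = 0.83, exact permutation p = 0.0583), followed by Dpp4 (r = 0.88, exact permutation p = 0.0194, rho = 0.77, exact permutation p = 0.103). Slc15a1 had r = 0.86 (exact permutation p = 0.0361, rho = 0.77, exact permutation p = 0.103) and Mep1b r = 0.82 (exact permutation p = 0.0472, rho = 0.60, exact permutation p = 0.242). After adjustment over the 8 relations 0 passed 0.05, with adjusted exact permutation p = 0.0778 for Enpep and Dpp4 and 0.0944 for Slc15a1 and Mep1b.

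Ace (r = 0.75, exact permutation p = 0.0806, rho = 0.49, exact permutation p = 0.356) and Mep1a (r = 0.65, exact permutation p = 0.149, rho = 0.54, exact permutation p = 0.297) were further off, and Mme was not close (r = 0.29, exact permutation p = 0.572, rho = 0.43, exact permutation p = 0.419). Dpep1 was the 1 member with a negative r, but the value was near 0 (r = -0.13, exact permutation p = 0.849, rho = -0.14, exact permutation p = 0.803), and it turned to 0.36 without wild-type replicate 3. Its other probe set had r = -0.08. Dpep1 therefore did not follow Anpep, and these 6 arrays do not show that it ran the other way.

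The relations were recomputed without replicate 2 of each genotype, the 2 arrays farthest from the median of Anpep. Without both, over 4 arrays, r was 0.47 for Enpep, 0.40 for Slc15a1, 0.24 for Ace, 0.07 for Dpp4, -0.10 for Mep1a, -0.24 for Mep1b, -0.41 for Dpep1 and -0.98 for Mme. Leaving out both also takes away most of the range of Anpep, so a lower r is partly built in, and over the other 4 arrays the likeness could not be shown. Without heterozygous replicate 2 alone, r was 0.92 for Enpep, 0.88 for Dpp4, 0.85 for Slc15a1, 0.84 for Ace, 0.79 for Mep1b and 0.75 for Mep1a. Without wild-type replicate 2 alone, r was 0.84 for Enpep, 0.73 for Dpp4, 0.67 for Slc15a1, 0.59 for Mep1b, 0.31 for Ace and 0.06 for Mep1a. With each genotype's mean taken away, r was 0.92 for Enpep, 0.88 for Dpp4, 0.93 for Slc15a1, 0.87 for Ace, 0.81 for Mep1b, 0.68 for Mep1a, 0.30 for Mme and -0.41 for Dpep1.

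**Figure D3:**
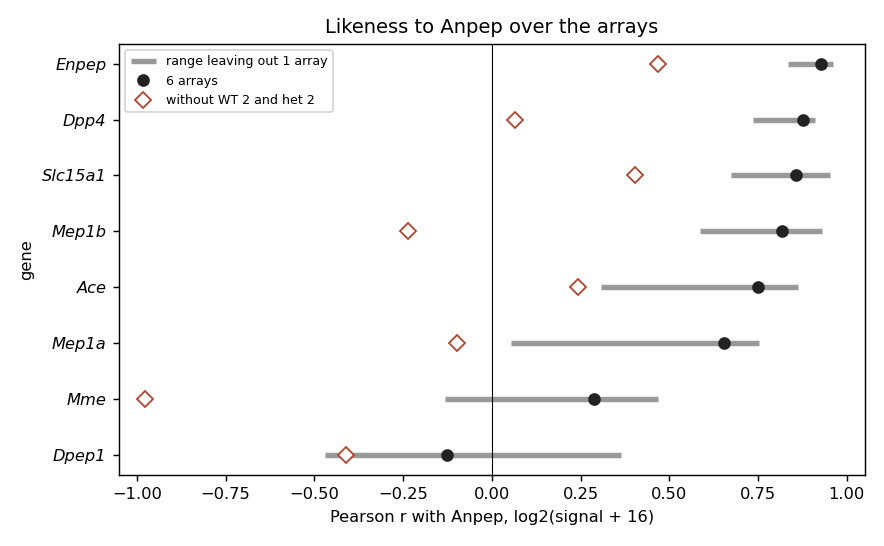
Pearson r of each member with Anpep on log2(signal + 16), over 6 arrays (black points), with the range when any 1 array is left out (grey bars) and the value without replicate 2 of both genotypes (open diamonds). Enpep is highest at 0.93 and Dpep1 lowest at -0.13, and every diamond lies left of its point.

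The genes outside the set with the pattern most like Anpep were picked by Pearson r over the 6 arrays among 656 tested genes with a range of at least 2-fold. They were Slc7a9 (r = 0.99), the light chain of the cystine and dibasic amino acid carrier, 2010106E10Rik (0.99), the anion exchanger Slc26a6 (0.98), Mttp (0.98), which loads lipid onto apolipoprotein B, sulfite oxidase Suox (0.98) and aspartoacylase Aspa (0.98). Slc7a9 read 287, 814.3 and 416.4 in heterozygous replicates, against 636.3, 1662.7 and 263.3 in wild-type replicates. 2010106E10Rik read 4.3 and 28 in heterozygous replicates 1 and 3 and 4.1 in wild-type replicate 3. Mttp, which is also on the ileal list below, read 29.9, 30.6 and 13 in the same arrays. Without detection calls these low readings cannot be shown to lie above background. The most opposed were Rtn1 (r = -0.99), the neuropeptide gene Grp (-0.98), Scg5 (-0.96), a chaperone of secretory granules, and the junction gene Jam3 (-0.95). Rtn1 read 411.4, 208.3 and 344.8 in heterozygous replicates, against 290.3, 183.5 and 406.5 in wild-type replicates. The median r of the 656 genes was -0.15.

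Ileal enterocyte genes moved with Anpep over the same arrays. The mean centred log2 signal of 11 tested ileal genes, of 15 listed and 13 on the array, stood at -0.69, 0.73 and -0.38 in heterozygous replicates 1 to 3 and at 0.23, 1.23 and -1.12 in wild-type replicates 1 to 3. This is the order of the arrays by Anpep (Spearman rho = 1, exact permutation p = 0.00278), with Pearson r = 0.98 (exact permutation p = 0.00139, adjusted over 18 relations of the 9 members with 2 marker lists 0.025) and r = 0.99 without wild-type replicates 2 and 3. The list had been chosen with its variation in these arrays known. Apoa1, the main protein of high-density lipoprotein, read 43, 3949.1 and 377.9 in heterozygous replicates, against 2396.9, 7711.8 and 29.5 in wild-type replicates. Of the 11 genes, 11 had a positive r with Anpep and 8 an r of at least 0.8, and the fatty acid binding protein gene Fabp2, at 7713.7 to 13528.8 over the arrays, and Clec2h, at 5426.5 to 7379.2, had r = 0.89 and 0.29. The other 2 ileal genes on the array were below the filter.

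The other members stood in the same order against the ileal score as against Anpep, with r = 0.92 for Enpep, 0.83 for Dpp4, 0.80 for Slc15a1 and 0.73 for Mep1b. Below them stood Ace at 0.68, Mep1a at 0.63, Mme at 0.24 and Dpep1 at -0.19. Without wild-type replicates 2 and 3, r was 0.86 for Enpep, 0.88 for Dpp4, 0.94 for Slc15a1 and 0.77 for Mep1b. It was 0.74 for Ace, 0.24 for Dpep1 and 0.12 for Mme, and turned to -0.51 for Mep1a. None of these members passed after adjustment over the 18 relations (adjusted exact permutation p = 0.0625 to 0.818). Against the colonocyte score, which over 8 genes stood at -0.17, 0.24 and 0.19 in heterozygous colon and at -0.01, 0.06 and -0.31 in wild-type colon, Dpep1 had r = -0.79 (exact permutation p = 0.0611, adjusted 0.22) and Anpep r = 0.64 (exact permutation p = 0.175, adjusted 0.35). Without wild-type replicate 3 and heterozygous replicate 2 these were -0.70 and 0.37. The 8 colonocyte genes did not move together, as only 4 had a positive r with Anpep. It was 0.71 for Aqp8 and 0.68 for Slc37a2, but -0.89 for Saa1 and -0.72 for Car4. Slc37a2 had the widest range of the 8, 49.0-fold, so the score leans on it. Whether Dpep1 or Anpep followed the share of colonocytes was therefore not tested. Smooth muscle genes were high where Anpep was low, with a score over 6 genes of 0.12, -0.26 and -0.12 in heterozygous replicates and -0.0024, -0.15 and 0.41 in wild-type replicates, and 0 of the 6 had a positive r with Anpep. Anpep is also known from myeloid cells and Dpp4 from T cells. The macrophage and dendritic cell score, over 6 genes, stood at 0.02, 0.11 and 0.27 in heterozygous colon, against -0.18, -0.06 and -0.15 in wild-type colon, in no order like that of Anpep. The T cell score, over 2 genes, stood at -0.33, 0.52 and 0.99 in heterozygous colon, against -0.48, -0.45 and -0.25 in wild-type colon, where Dpp4 was highest in the array with -0.45. Of 7 listed T cell genes only these 2, Cd3g and Cd3d, were tested. Cd3d averaged 204.0 in heterozygous colon and 92.9 in wild-type colon, the latter below the filter on low signal. It passed only because its heterozygous signal lifted the mean, so the higher heterozygous score is partly built in. The T cell score is therefore given as a description. The part of these cell types in the peptidase values was not tested.

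**Figure D4:**
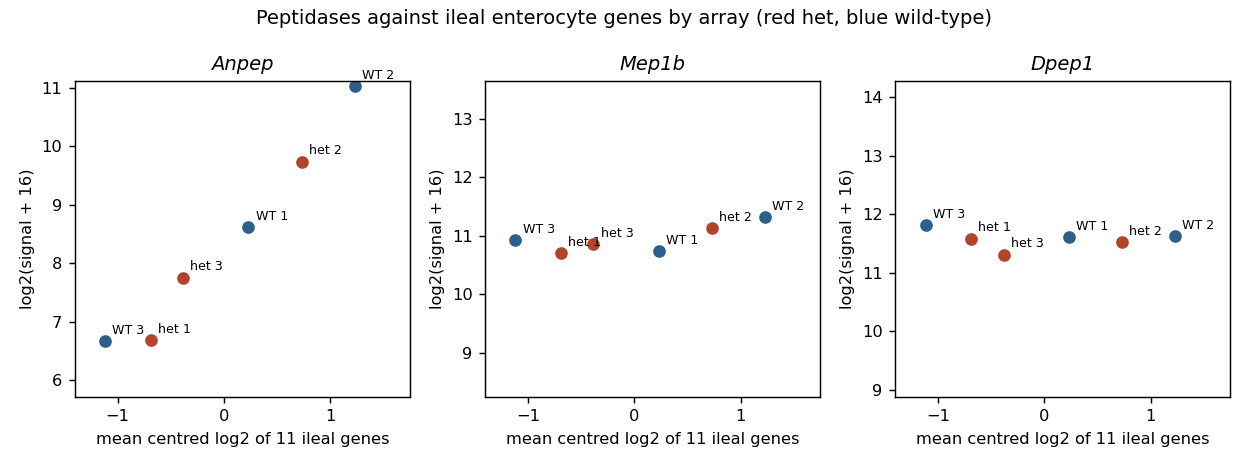
Log2(signal + 16) of Anpep, Mep1b and Dpep1 (vertical axes, each spanning the same number of log2 units) against the mean centred log2 signal of 11 ileal enterocyte genes, with 1 point per array, heterozygous in red and wild-type in blue. Anpep climbs along the whole score (r = 0.98), Mep1b is shallow (r = 0.73) and Dpep1 is flat (r = -0.19).

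Heterozygous colon was then compared with wild-type colon with limma over 13576 probe sets, on which 10 of the 13 peptidase probe sets, and all 9 genes, were tested. None of the members passed: 0 of 9 genes had an adjusted p under 0.05, against 0% of all 13576 probe sets, while 771 probe sets, or 5.68%, had an unadjusted p under 0.05. Of the 9 genes, 7 had a negative fold change, against 48.5% of 8243 genes, with a median log2 of -0.34 against 0.01 over all tested genes. Since 8 of the 9 are highest in the same wild-type array, the 7 signs are not separate observations. The groups did not overlap for 2 of the 9, Dpep1 and Ace, both lower in heterozygous colon, against 5.07% of genes that were apart and lower and 10.7% that were apart in either direction. Ace had passed the filter only through the wild-type arrays, so its separation is given as a description and the count of 2 supports nothing.

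Slc15a1 had the lowest fold change, at 105 ± 85.4 in heterozygous and 255 ± 188 in wild-type colon (SD, n = 3 each). The log2 fold change was -1.17 (95% interval -2.36 to 0.02, limma adjusted p = 0.882). It was -0.64 without wild-type replicate 2 and -1.71 without heterozygous replicate 2. Ace averaged 71.9 ± 15.1 in heterozygous and 134 ± 60.8 in wild-type colon (SD, n = 3 each), a log2 fold change of -0.71 (95% interval -1.36 to -0.07, limma adjusted p = 0.814), for a gene that was tested only because its wild-type signal lifted the mean over the filter. Without wild-type replicate 2 it was -0.40. The endothelial score, over 6 genes, stood at 0.02, -0.04 and 0.02 in heterozygous colon and at -0.10, 0.19 and -0.09 in wild-type colon, highest in the array where Ace was highest, and its part in the Ace values was not tested.

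Dpep1 averaged 2833 ± 278 in heterozygous and 3273 ± 270.2 in wild-type colon (SD, n = 3 each), a log2 fold change of -0.21 (95% interval -0.45 to 0.04, limma adjusted p = 0.912). Leaving out heterozygous replicate 3 brought it to -0.13, and leaving out wild-type replicate 3 to -0.14. Its other probe set, at 1852 ± 96.3 and 2504 ± 560 (SD, n = 3 each) in heterozygous and wild-type colon, had -0.41 (95% interval -0.76 to -0.05, limma adjusted p = 0.814). Both probe sets had a lower mean in heterozygous colon, and neither passed over all probe sets. The exact permutation p was 0.1 for the brighter Dpep1 probe set, the smallest that 3 against 3 arrays can give, and 0.2 for the dimmer one. Ace also had an exact permutation p of 0.1. As it passed the filter only through its wild-type arrays, that value is given as a description.

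For Anpep the log2 fold change was -0.71 with a 95% interval from -3.04 to 1.61 (limma adjusted p = 0.963). Enpep had -0.34 (95% interval -1.52 to 0.84), Dpp4 -0.35 (-1.02 to 0.32) and Mep1b -0.10 (-0.48 to 0.28), with limma adjusted p from 0.937 to 0.971. Without wild-type replicate 2 all of these 4 turned positive, at 0.41 for Anpep, 0.27 for Enpep, 0.025 for Dpp4 and 0.060 for Mep1b. Mep1a had 0.01 with the narrowest interval of the members, -0.20 to 0.22, and Mme 0.01 with an interval from -0.70 to 0.72.

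**Figure D5:**
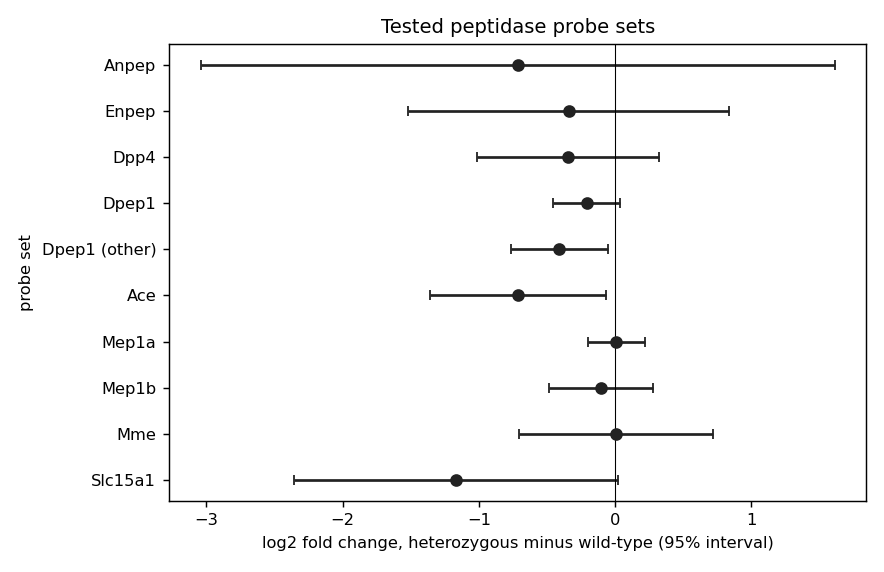
Log2 fold change, heterozygous minus wild-type, of the 10 tested probe sets with 95% intervals from limma. The interval of Anpep spans -3.04 to 1.61 and that of Mep1a -0.20 to 0.22, and only the intervals of Ace and of the dimmer Dpep1 probe set leave out 0, before any adjustment over all probe sets; Ace passed the filter only through its wild-type arrays.

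Other genes of peptide digestion and uptake did not pass the test either. Among carriers of amino acids, 9 of 13 listed genes were tested, 8 had a negative and 1 a positive fold change, and 0 passed (median log2 -0.23). Slc38a2, a sodium-coupled carrier of neutral amino acids, averaged 2612 ± 187 in heterozygous and 2105 ± 408 in wild-type colon (log2 fold change 0.33), and Slc3a2, the heavy chain of several exchangers, had a log2 fold change of -0.0049. Slc3a1, the heavy chain that pairs with Slc7a9, averaged 705 ± 160.4 in heterozygous and 998 ± 209 in wild-type colon (SD, n = 3 each), a log2 fold change of -0.50 (limma adjusted p = 0.814), with r = 0.71 against Anpep. Slc7a9 had the same log2 fold change of -0.50 with a wider SE, 0.58 against 0.20.

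Cytosolic peptidases, which finish the digestion of the peptides that Slc15a1 takes up, were tested for all 13 listed genes, with 6 negative, 7 positive and 0 past the threshold (median log2 0.02). Cndp2, a cytosolic dipeptidase, averaged 1770 ± 360 in heterozygous and 2479 ± 579 in wild-type colon (log2 fold change -0.48, r with Anpep 0.80). Xpnpep1, which removes a residue before proline, had r = 0.96 and a log2 fold change of -0.24, and the dual-function peptidase Lta4h r = -0.02 and 0.09. Of a further list of peptidases, not all of them membrane-bound, 7 of 13 were on the array and 3 were tested. These were the membrane peptidase Ece1 and the soluble Dpp8 and Dpp7. All 3 had a negative r with Anpep (-0.33, -0.31 and -0.46), with 0 past the threshold.

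Structural genes of the brush border had positive r with Anpep, most of them with a small range. Of 11 tested, of 15 listed, 11 had a positive r with Anpep and 7 an r of at least 0.8, while 1 had a range of at least 2-fold. That gene, named after its values were seen, was the scaffold Pdzk1, which read 3.4, 199.7 and 6.8 in heterozygous replicates, against 101, 312.1 and 11.2 in wild-type replicates. Its range was 16.9-fold on signal + 16 and its r with Anpep 0.95, and its log2 fold change was -1.15 (limma adjusted p = 0.937). The mean of Pdzk1, 105.7, passed the filter of 95.8, but its heterozygous mean of 70.0 lay below it, against 141.4 in wild-type colon. Its readings of 3.4, 6.8 and 11.2 lay below the added 16, and without detection calls they cannot be shown to lie above background. The range and fold change of Pdzk1 are therefore given as a description. By genotype, 8 of the 11 genes were negative, 3 positive and 0 past the threshold. The scaffold Slc9a3r1 averaged 7146 ± 1197 in heterozygous and 8361 ± 1715 in wild-type colon (r = 0.90), the protocadherin Cdhr5 had r = 0.52 and the epithelial adhesion gene Epcam r = 0.35, with a 1.10-fold range. Among 7 tested regulators of enterocyte genes, 3 had a positive r, led in signal by Hnf4a (r = 0.84), Klf5 (-0.70) and Cdx2 (0.56), with 0 past the threshold between genotypes. These lists share the arrays with the members and are given as counts.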

How the data were processed

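The authors deposited 1 linear intensity per probe set and array, per the file headers, without detection calls. The submitters' processing notes name GCOS, the array maker's software, and do not give its settings. Without the top and bottom 2% of probe sets, the deposited intensities averaged 500.2 on all 6 arrays, so they had been scaled to 1 level and a change in RNA per cell is not measurable. Precision is limited by having 3 arrays per genotype.

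Of the probe sets left after 64 controls were removed, 20380 had 1 gene symbol in the platform's annotation, 691 several and 1555 none, and only the first kind was used for names. Values entered as log2(signal + 16), which understates the fold changes of dim genes. The arrays' medians lay within 0.09 log2, and no further normalization was made. Probe sets with a mean signal below the 40th percentile (95.8) were not tested. Limma 3.58.1 (R 4.3.3, variance trend, two-sided) compared the genotypes, with Benjamini-Hochberg adjustment over 13576 probe sets and a threshold of 0.05. Single values and correlations (Python 3.11.15) had exact two-sided permutation tests. The brightest probe set stood for each gene. Both steps were tested on simulated data.

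Genes named are the 9 members, the 6 highest and 4 lowest by r with Anpep among those with a 2-fold range, up to 3 per list by signal, Apoa1, Fabp6 and Mthfd1. Slc37a2, Aqp8, Aqp4, Car4 and Pdzk1 were added outside these rules, after their values were seen. The members and lists were chosen with earlier results of these data known. Alternatives covered normalization, pseudocount, filter, variance model, array weights, a replicate block, an ileal covariate, the probe set per gene and each array left out. Promoter windows are from RefSeq (GRCm38.p6). The protein motif search that had been planned was not run.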

Additional observations from a re-analysis of the deposited data

How the results depend on the processing

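No member passed under any of the 17 alternatives, and of 151 member fold changes under them 139 kept their sign. Over the whole array 0 probe sets passed, and 8 did with robust variance, 4 with array weights, 8 with the ileal covariate and between 0 and 38 with 1 array left out (38 without heterozygous replicate 1, 2 without wild-type replicate 3). Signs turned in 12 cases. With 1 array left out the log2 fold change ran from -1.77 to 0.412 for Anpep, from -0.782 to 0.272 for Enpep, from -0.536 to 0.0249 for Dpp4 and from -0.230 to 0.0602 for Mep1b, in each case positive only without wild-type replicate 2. It ran from -0.0410 to 0.0992 for Mep1a, negative without heterozygous replicate 3 (-0.00706), wild-type replicate 1 (-0.0353) and wild-type replicate 3, and Mep1a was also negative with quantile normalization (-0.00420) and array weights (-0.0172). It ran from -0.340 to 0.261 for Mme, negative without heterozygous replicate 1 (-0.0862), heterozygous replicate 2 (-0.150) and wild-type replicate 1. For Dpep1 it ran from -0.263 to -0.127. With the ileal covariate Anpep was at -0.28, Enpep at -0.14, Slc15a1 at -0.97 and Ace at -0.63. Ace and Slc15a1 fell below the 60th percentile filter and have no value there.

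Of the 8 other members, 7 had a positive r with Anpep, and 4 without the 2 arrays farthest from its median, where Mep1a had -0.0977, Mep1b -0.237 and Mme -0.978. With 1 array left out, r ran from -0.471 to 0.365 for Dpep1, positive only without wild-type replicate 3, and from -0.133 to 0.468 for Mme, negative only without wild-type replicate 2. On the linear signal Dpep1 had r = 0.0276. There 4 of the 8 relations passed after adjustment, Enpep, Dpp4, Slc15a1 and Mep1b. On the log2 scale 3 passed without heterozygous replicate 3, Enpep, Dpp4 and Slc15a1. The cause of these shifts was not tested.

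The labels do not say whether the replicate numbers pair the animals. Deviations of same-numbered arrays correlated at -0.12, 0.50 and 0.05 across probe sets. The value for replicate 2 was the highest between any 2 arrays of different genotype, and heterozygous replicate 1 correlated best with wild-type replicate 3 (0.42). Such correlations cannot decide whether the animals were paired. With the replicate number as a block 0 probe sets passed, and so did 0 members (Slc15a1 limma adjusted p = 0.214).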
